A study of Rattus norvegicus with 8 samples.

Results

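Podocytes are the epithelial cells that wrap the capillaries of the glomerulus, the filter of the kidney, and the slits between their foot processes hold back protein. Measured here in isolated rat glomeruli were genes that give the podocyte its identity and its surface: the transcription factors Wt1, Tcf21, Lmx1b and Foxc2, the surface proteins Podxl and Pdpn, the actin and filament proteins Synpo and Nes, and the secreted ligand Vegfa. They were chosen by name as markers of this cell, with earlier results of these data already known. Of these 9 genes, 8 were measured, by 16 probe sets (sets of short oligonucleotides on the array) annotated to them alone, among 14217 genes and 31042 probe sets in all. Lmx1b was not analysed here, because the annotation used assigns it no probe set.

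The study compared Dahl salt-sensitive rats, which become proteinuric and hypertensive without further intervention, with spontaneously hypertensive rats (SHR rats), which become hypertensive without proteinuria. Glomerular RNA was taken from both strains at 4 and at 6 weeks of age, from 2 rats per strain and age, and each rat had an array of its own, which gives 8 arrays in 4 groups. All rats were males on a low-salt diet, their glomeruli were isolated with magnetic beads, and the replicates are labelled as biological. No gene was altered in either strain, so the groups differ in the whole genetic background, and the question is how podocyte genes stand in the 2 strains around the age at which Dahl rats become proteinuric. Values are the deposited log2 expression values, on which a difference of 1 is a doubling. The correlation between both arrays of a group was 0.989 to 0.997 over probe sets, and the array medians lay between 4.11 and 4.16. Nphs1, which encodes nephrin of the slit, and the main probe set of Wt1 were bright on every array. They read 11.84 to 12.65 and 10.82 to 11.28, and the Wt1 mean lay at percentile 98.4 of all probe sets. Foxc2 was not bright, its main probe set having a mean of 3.29, at percentile 40.3. Strain differences are Dahl minus SHR, fitted with limma over all probe sets, with p values adjusted by the method of Benjamini and Hochberg, and a gene passed the test at an adjusted p under 0.05. A gene is represented by its probe set with the highest mean over the 8 arrays, here called the main probe set.

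In the podocyte, Wt1 and the other transcription factors hold the cell in its differentiated state and switch on genes of the slit and of the surface coat. Podocalyxin, the product of Podxl, is a heavily sialylated mucin whose negative charge keeps neighbouring foot processes apart, and podoplanin, the product of Pdpn, is a smaller mucin-type membrane protein tied to actin through ezrin and moesin. Synaptopodin, from Synpo, binds actin and α-actinin in the foot processes, nestin, from Nes, is an intermediate filament protein of the cell body and major processes, and VEGF-A, from Vegfa, is secreted toward the glomerular endothelium.

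Nes, Synpo and Pdpn were higher in the glomeruli of Dahl rats than in those of SHR rats over both ages, and the other 5 genes measured did not pass the test. Nes was 2.58-fold higher (a log2 difference of 1.36 with a standard error of 0.097), Synpo 1.51-fold and Pdpn 1.46-fold. The transcription factors Wt1, Tcf21 and Foxc2 differed by 0.14, 0.48 and 0.40 on the log2 scale with standard errors of 0.12, 0.19 and 0.21. No measured member was lower in Dahl rats with an adjusted p under 0.05. The 3 of 8 genes higher stand beside 13.2% of all 14217 genes and, counted over probe sets, 5 of 16 stand beside 10.6% of all probe sets. A further 24.2% of all probe sets were lower in Dahl rats, and 0 of the 16. Of the 10787 probe sets that passed, 3283 were thus higher in Dahl rats, and after quantile normalization 2261 of 4740 were, with the same 3 members passing. The median difference of the 8 genes was 0.44, with 7 above 0, while the median over all genes was -0.0482 and 40.7% of genes lay above 0. All of these genes except Foxc2 are bright on the array, and among the brighter probe sets by their median, refitted alone, 19.1% were higher in Dahl rats. Of those brighter probe sets 2957 were higher and 1820 lower, whereas of all probe sets 3283 were higher and 7504 lower. In glomerular RNA, a difference in the number of podocytes and one in the RNA per podocyte cannot be told apart.

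**Figure D1:**
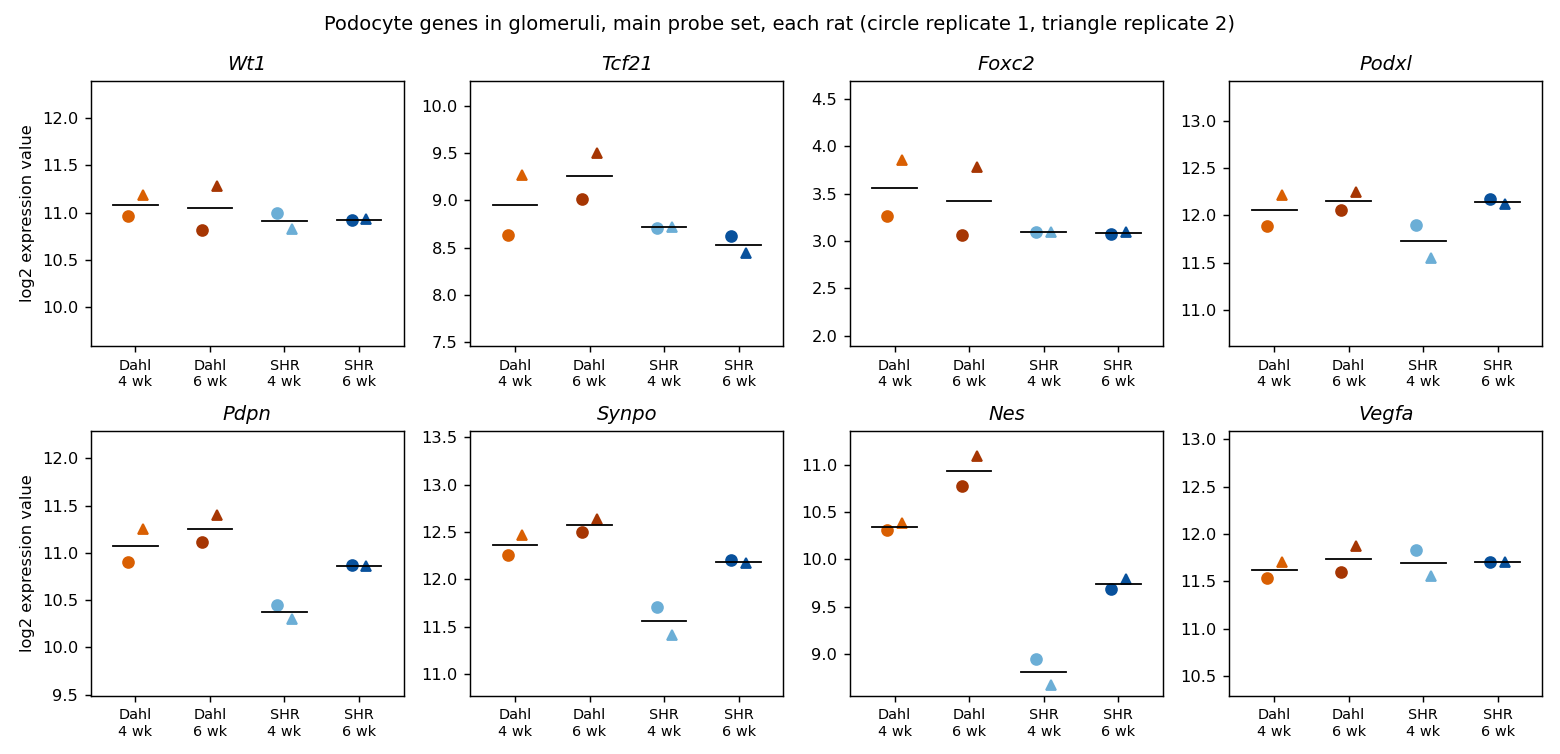
Log2 expression value (vertical axis) of the main probe set of the 8 measured genes in each rat, by strain and age (horizontal axis). Replicate 1 is drawn as a circle and replicate 2 as a triangle, a bar marks the group mean, and every panel spans the same log2 range around its own mean. Nes, Synpo and Pdpn separate the strains at both ages, while Wt1, Podxl and Vegfa do not.

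Nes showed the largest strain difference of any main probe set of these genes. In Dahl rats its level was 10.31 and 10.38 at 4 weeks and 10.78 and 11.09 at 6 weeks. In SHR rats it was 8.95 and 8.67 at 4 weeks and 9.69 and 9.79 at 6 weeks. Every Dahl rat was thus above every SHR rat, and the 4 groups lay in the order Dahl 6 weeks, Dahl 4 weeks, SHR 6 weeks and SHR 4 weeks with no overlap between neighbours. Over both ages the adjusted p was 0.00511 by limma. With each array left out in turn the difference stayed between 1.29 and 1.44 and passed in all 8 fits, with adjusted p values from 0.00598 to 0.0279. Nes was higher at 4 weeks by 1.53 (standard error 0.14, adjusted p = 0.00971) and at 6 weeks by 1.20 (standard error 0.14, adjusted p = 0.0321, limma). The difference at 6 weeks did not pass when only the arrays of that age were fitted (adjusted p = 0.114), and it passed in 1 of 8 fits with an array left out, the one without Dahl 6 weeks replicate 1 (range 1.04 to 1.35, highest adjusted p = 0.12). That at 4 weeks lost its call only without Dahl 4 weeks replicate 2 (1.50, adjusted p = 0.0531).

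Synpo, the actin-binding protein of the foot processes, was measured by 3 probe sets. Its main probe set read 12.26 and 12.47 in Dahl rats at 4 weeks and 12.50 and 12.64 at 6 weeks. In SHR rats it read 11.71 and 11.41 at 4 weeks and 12.20 and 12.17 at 6 weeks. The 2 strains did not overlap, although the lowest Dahl value, at 4 weeks, and the highest SHR value, at 6 weeks, lay close together. The difference over both ages was 0.59 (standard error 0.089, adjusted p = 0.0164), and that at 4 weeks was 0.80 (standard error 0.13, adjusted p = 0.0276). At 6 weeks it was 0.38 (standard error 0.13, adjusted p = 0.124, limma) and did not pass. The difference over both ages no longer passed without Dahl 4 weeks replicate 2 (0.54, adjusted p = 0.0516), SHR 6 weeks replicate 1 (0.60, adjusted p = 0.0567) or SHR 6 weeks replicate 2 (0.59, adjusted p = 0.0618). That at 4 weeks passed in 3 of 8 such fits, and not when only the arrays of that age were fitted (adjusted p = 0.108).

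A dimmer probe set of Synpo, with a mean of 6.92, showed a larger difference in the same direction. It read 7.49, 8.0, 7.83 and 8.02 in Dahl rats, in the order of 4 weeks and then 6 weeks, and 6.29, 5.14, 6.53 and 6.02 in SHR rats. All Dahl rats were again above all SHR rats, by 1.84 over both ages (standard error 0.31, adjusted p = 0.0203, limma), a 3.58-fold difference. Its call held in 4 of 8 fits with an array left out, with a range of 1.55 to 2.13 and a highest adjusted p of 0.0697, and it was lost without Dahl 4 weeks replicate 2, Dahl 6 weeks replicate 2 and either SHR 6 weeks rat. The third probe set of Synpo was dim, with a mean of 2.84 and values between 2.77 and 2.98, and it differed by -0.08 (standard error 0.032, adjusted p = 0.101). The probe sets of Synpo therefore gave differences of unlike size, and the dimmest one went the other way without passing. On that one every Dahl rat was below every SHR rat (2.77 to 2.81 against 2.84 to 2.98).

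Pdpn was measured by 1 probe set. Its level was 10.90 and 11.25 in Dahl rats at 4 weeks and 11.11 and 11.40 at 6 weeks. In SHR rats it was 10.45 and 10.30 at 4 weeks and 10.87 and 10.86 at 6 weeks. Each Dahl rat was above each SHR rat, but the lowest Dahl rat of 4 weeks exceeded the SHR rats of 6 weeks only narrowly. The difference was 0.55 over both ages (standard error 0.11, adjusted p = 0.0268), 0.70 at 4 weeks (standard error 0.15, adjusted p = 0.0498) and 0.39 at 6 weeks (standard error 0.15, adjusted p = 0.148). Of the 8 fits with an array left out, the difference over both ages passed in the 2 without Dahl 4 weeks replicate 1 or Dahl 6 weeks replicate 1, with a range over all 8 of 0.46 to 0.63 and a highest adjusted p of 0.0852. That at 4 weeks passed in 0 of 8 (0.53 to 0.88, adjusted p from 0.053 to 0.176).

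The stretches just upstream of Nes and Pdpn are shown because these are the members whose only probe set differed between the strains. They are the 250 bases before the RefSeq start of each gene on the rat build GRCr8, at chr2:175736338-175736587 on the + strand for Nes and at chr5:160918960-160919209 on the - strand for Pdpn, written 5′ to 3′ on the gene's strand. Capitals mark matches on either strand to the letters searched, which were CANNTG (an E-box, the kind bound by basic helix-loop-helix factors such as Tcf21), GTAAACA (a forkhead site), TAATTA (a LIM-homeodomain site), GCGGGGGCG (an EGR-type site, which Wt1 can also bind) and GGGCGG (a GC box).
Nes: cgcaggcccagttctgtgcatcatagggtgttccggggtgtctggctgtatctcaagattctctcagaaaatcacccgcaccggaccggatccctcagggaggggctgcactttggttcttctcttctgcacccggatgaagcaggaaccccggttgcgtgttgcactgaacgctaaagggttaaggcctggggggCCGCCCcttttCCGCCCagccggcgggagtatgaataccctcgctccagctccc
Pdpn: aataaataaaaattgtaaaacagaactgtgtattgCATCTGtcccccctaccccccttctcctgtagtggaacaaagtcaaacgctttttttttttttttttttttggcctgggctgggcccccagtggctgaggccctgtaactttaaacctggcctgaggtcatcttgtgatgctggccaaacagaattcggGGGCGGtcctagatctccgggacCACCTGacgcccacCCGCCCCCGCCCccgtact
In the Nes stretch the capitals are 2 GC boxes, and it held none of the other motifs. The Pdpn stretch held 2 E-boxes, 3 GC boxes and 1 EGR-type match, which overlaps GC boxes in the last run of capitals. E-boxes occur in 65.5% of 33469 rat promoters of this length, GC boxes in 30.5%, the EGR-type letters in 2.45%, the LIM-homeodomain letters in 4.86% and the forkhead letters in 3.21%. These matches describe the letters only, and binding was not measured.

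Podxl, which encodes the main sialomucin of the podocyte surface, did not pass the test at either age. Its main probe set read 11.89 and 12.22 in Dahl rats at 4 weeks and 12.06 and 12.25 at 6 weeks, and 11.90 and 11.55 in SHR rats at 4 weeks and 12.17 and 12.12 at 6 weeks. The strains overlapped at each age, and the lowest value was that of an SHR rat of 4 weeks. The difference was 0.17 over both ages (standard error 0.12, adjusted p = 0.268), 0.33 at 4 weeks (adjusted p = 0.196) and 0.01 at 6 weeks (adjusted p = 0.959, limma). Both dimmer probe sets of Podxl differed in the same direction without passing, by 0.24 for that with a mean of 6.20 (standard error 0.20, adjusted p = 0.353) and by 0.75 for that with a mean of 4.70 (standard error 0.29, adjusted p = 0.0926). By the manufacturer's naming, the probes of all 3 can match several transcripts. Pdpn and Podxl, both mucins of the same membrane, were not compared by a test, and their differences over both ages were 0.55 and 0.17.

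The transcription factors showed positive differences that did not pass. The main probe set of Wt1, the zinc-finger factor used to count podocyte nuclei, read 10.96, 11.19, 10.82 and 11.28 in Dahl rats, in the order of 4 weeks and then 6 weeks, and 11.00, 10.83, 10.92 and 10.93 in SHR rats. The strains overlapped, the Dahl rats being the more widely spread (standard deviation 0.21 against 0.07, n = 4 each), and the difference of 0.14 had an adjusted p of 0.377. The dimmer probe set of Wt1, with a mean of 7.21, read 7.35, 7.75, 7.02 and 7.91 in Dahl rats and 7.13, 6.97, 6.82 and 6.75 in SHR rats. Here the Dahl rats were above the SHR rats at each age, and the difference was 0.59 (standard error 0.22, adjusted p = 0.0883, limma).

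Tcf21, the basic helix-loop-helix factor also known as Pod1 or capsulin, read 8.63 and 9.27 in Dahl rats at 4 weeks and 9.01 and 9.50 at 6 weeks. In SHR rats it read 8.71 and 8.72 at 4 weeks and 8.62 and 8.44 at 6 weeks. The strains overlapped at 4 weeks and were apart at 6 weeks. The difference was 0.23 at 4 weeks (standard error 0.26, adjusted p = 0.527), 0.72 at 6 weeks (standard error 0.26, adjusted p = 0.138) and 0.48 over both ages (adjusted p = 0.0965, limma). Foxc2, a forkhead factor needed for podocyte differentiation, was dim: its main probe set had a mean of 3.29, at percentile 40.3 of all probe sets. It read 3.26, 3.86, 3.06 and 3.78 in Dahl rats and 3.10, 3.09, 3.07 and 3.09 in SHR rats. The Dahl mean thus rested on replicate 2 of each age, and the difference of 0.40 did not pass (adjusted p = 0.179). The remaining probe sets of Foxc2, with means of 2.36 and 1.32, differed by 0.00 and -0.03. On the dimmest, every Dahl rat was below every SHR rat, within a range of only 0.04 over the 8 arrays.

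Vegfa was measured by a pair of probe sets that gave unlike results. The main one read 11.53, 11.70, 11.60 and 11.87 in Dahl rats and 11.83, 11.55, 11.70 and 11.70 in SHR rats, so the strains overlapped at each age. Its difference was -0.02 (standard error 0.096, adjusted p = 0.879). The dimmer one, with a mean of 8.46 and with probes that by the manufacturer's naming match several transcripts of the gene, read 8.51, 9.14, 8.71 and 9.20 in Dahl rats and 8.46, 7.97, 7.90 and 7.78 in SHR rats. On it every Dahl rat was above every SHR rat, by 0.86 over both ages (standard error 0.21, adjusted p = 0.0389), with 0.61 at 4 weeks (adjusted p = 0.191) and 1.11 at 6 weeks (adjusted p = 0.10, limma). This call held in 2 of 8 fits with an array left out, those without Dahl 4 weeks replicate 1 or Dahl 6 weeks replicate 1 (range 0.71 to 1.02, highest adjusted p = 0.114), and it was also lost after quantile normalization (0.82, adjusted p = 0.059). With all probe sets of a gene averaged, the difference of Vegfa was 0.42 (adjusted p = 0.0835).

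**Figure D2:**
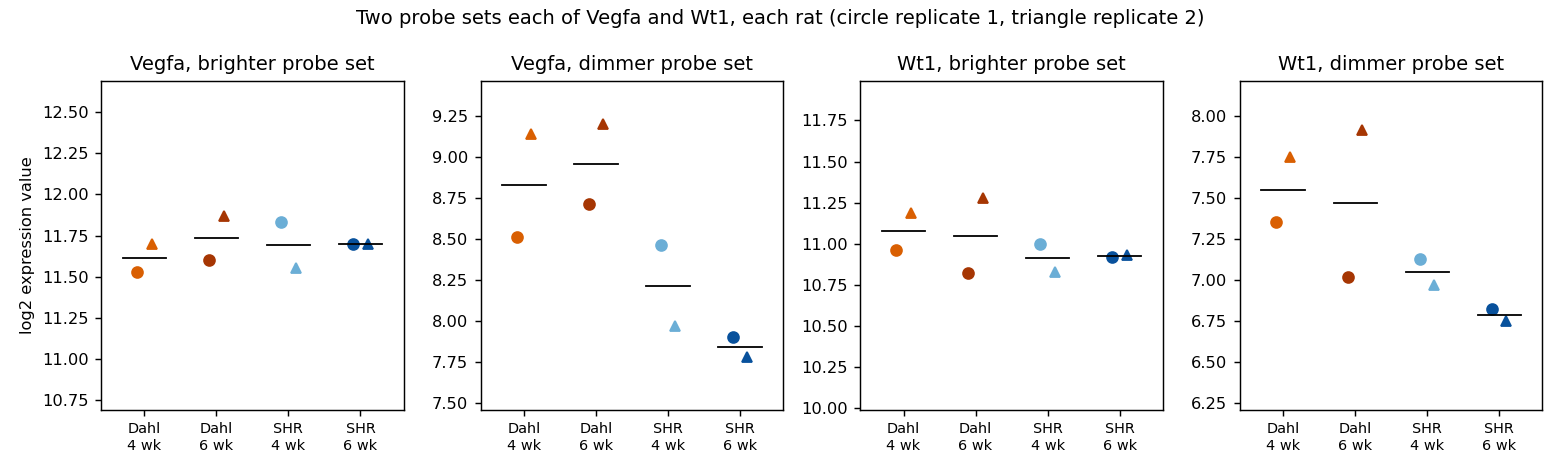
Log2 expression value (vertical axis) of the brighter and the dimmer probe set of Vegfa and of Wt1 in each rat, by strain and age (horizontal axis), with circles for replicate 1, triangles for replicate 2 and bars for the mean of 2 rats. The strains overlap on the brighter probe sets and are apart at each age on the dimmer ones, with a difference over both ages of 0.86 for Vegfa and 0.59 for Wt1.

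**Figure D3:**
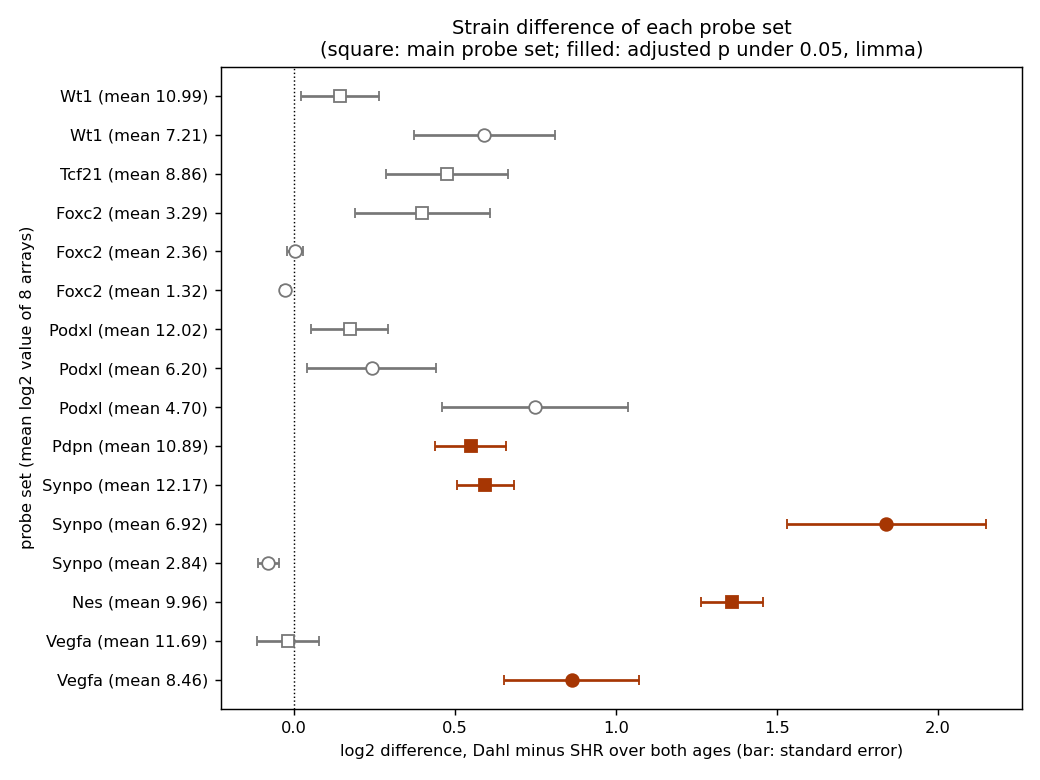
Log2 difference of Dahl minus SHR over both ages (horizontal axis) for all 16 probe sets, ordered by gene and named with their mean log2 value (vertical axis), with standard errors as bars. Squares are main probe sets and filled symbols passed at an adjusted p under 0.05, which 5 probe sets of Pdpn, Synpo, Nes and Vegfa did.

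At 4 weeks 3 of 8 genes were higher in Dahl rats (Nes, Synpo and Pdpn) and at 6 weeks 1 (Nes), and 0 were lower at either age. Counted over probe sets, these were 4 and 1 of 16, beside 5.63% and 1.65% of all probe sets. Among the brighter probe sets by their median, refitted alone, 13.0% and 6.37% were higher in Dahl rats at 4 and 6 weeks. The median difference of the 8 genes was 0.40 at 4 weeks and 0.36 at 6 weeks, and the sign was positive for 7 and for 8 of them. When only the 4 arrays of an age were fitted, 1 gene passed at 4 weeks and 0 at 6 weeks. Every Dahl rat was above every SHR rat for 3 of 8 members, namely Pdpn, Synpo and Nes, which was true of 9.35% of all genes.

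Between 4 and 6 weeks, Nes rose in SHR rats by 0.93 (standard error 0.14, adjusted p = 0.0487), a 1.91-fold change, and both SHR rats of 6 weeks were above both of 4 weeks. This was 1 of 8 members, beside 1.5% of all probe sets that rose in SHR rats. Among the brighter probe sets, refitted alone, 5.08% rose in SHR rats. The call of Nes held in 2 of 8 fits with an array left out, those without a Dahl 6 weeks rat, and was lost after quantile normalization (0.90, adjusted p = 0.05) and in the 6 other fits (0.80 to 1.07, adjusted p up to 0.202). In the same comparison Synpo differed by 0.62 (adjusted p = 0.0951), Pdpn by 0.49 (adjusted p = 0.225) and Podxl by 0.42 (adjusted p = 0.338, limma), without passing. Between the ages in SHR rats Wt1, Foxc2 and Vegfa differed by 0.01, -0.01 and 0.01, and Tcf21 by -0.18 (adjusted p = 0.907, limma).

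In Dahl rats 0 of 8 members passed between the ages, beside 0.0515% of all probe sets that rose. At an unadjusted p under 0.05 there was 1 member, Nes, with a difference of 0.59 (standard error 0.14, unadjusted p = 0.0079, adjusted p = 0.337, limma). Synpo stood 0.20 and Pdpn 0.18 higher at 6 weeks, with adjusted p values of 0.757 and 0.848. The interaction of strain and age, which is the later strain difference less the earlier one, was -0.34 for Nes (adjusted p = 0.689), -0.42 for Synpo (adjusted p = 0.512) and -0.31 for Pdpn (adjusted p = 0.775). None of the 8 members passed this test, 0 had an unadjusted p under 0.05, and 0.519% of all probe sets passed it in either direction. For Synpo the unadjusted p was 0.0663.

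The members also varied together within groups. In Dahl rats of 4 weeks all 8 members were higher in replicate 2 than in replicate 1, by a median of 0.28 (0.07 to 0.64), and in Dahl rats of 6 weeks again all 8, by a median of 0.30 (0.14 to 0.72). Of all genes, 41.6% and 47.8% were higher in replicate 2 of these groups, and 27.3% in both. In SHR rats of 4 weeks 1 of 8 members was higher in replicate 2 (median -0.22), and in SHR rats of 6 weeks 4 of 8 (median 0.00). The largest of these gaps were those of Foxc2, 0.60 and 0.72 at 4 and 6 weeks, and of Tcf21, 0.64 and 0.49. The actin and filament genes had smaller ones, of 0.21 and 0.14 for Synpo and 0.07 and 0.31 for Nes.

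Relative to the main probe set of Wt1 in the same rat, Nes stood higher in Dahl rats by 1.22 with every Dahl rat above every SHR rat. Synpo stood higher by 0.45, Pdpn by 0.41, Tcf21 by 0.33 and Foxc2 by 0.26, with overlap between the strains, Podxl by 0.03, and Vegfa stood at -0.16. These values are a description with no test.

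The members with the most alike profiles over the 8 arrays were Pdpn and Synpo, whose values, each minus its own mean, differed by a root mean square of 0.0812 on the log2 scale. Wt1 and Vegfa followed at 0.112, and Nes and Vegfa were the least alike at 0.784. Among the genes that are not members, the one closest to Nes was Sncg (0.0897), then Dpysl2 (0.131) and Pea15 (0.134). The closest to Pdpn were Anxa5 (0.0388), Tmem165 (0.054) and Dag1 (0.0553), and the closest to Synpo were Mapre2 (0.0523), Wipf1 (0.0617) and Tmx4 (0.0661). For Podxl the closest was Nrp1 (0.0479), for Tcf21 Zfp703 (0.0706) and for Foxc2 Siah1 (0.0411). Wt1 and Vegfa varied by less than 0.5 over the arrays, and no likeness was computed for them outside the members.

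Of 21 other podocyte genes measured out of 28 listed, 11 were higher in Dahl rats over both ages and 0 lower, with a median difference of 0.31. By p value they were led by Enpep, the membrane peptidase aminopeptidase A, at 0.94 (standard error 0.049, adjusted p = 0.00274), the integrin subunit Itga3 at 0.84 (adjusted p = 0.0148) and the semaphorin Sema3g at 0.31 (adjusted p = 0.0183). Nphs1 differed by 0.24 (standard error 0.10, adjusted p = 0.121). The counts of this list and of those that follow stand beside 13.2% of all genes higher over both ages. Among the brighter probe sets, refitted alone, 19.1% were higher. At 4 weeks 3 of the list were higher and 1 lower, Thsd7a at -0.66 (adjusted p = 0.0451), and at 6 weeks 1 was higher, Enpep. Without an array, 2 to 12 of the 21 were higher, and without Dahl 6 weeks replicate 2, the array with the lowest tubule markers, 7 were. Enpep passed in all 8 of these fits, Itga3 in 7 (not without Dahl 4 weeks replicate 2, highest adjusted p = 0.0511) and Sema3g in 5 (not without SHR 4 weeks replicate 2 or either SHR 6 weeks rat, highest adjusted p = 0.0641).

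Among 13 other transcription factors of the developing glomerulus, 1 was higher, the zinc-finger repressor Zeb2 (0.64, adjusted p = 0.0119), and 1 lower, Sall1 (-1.02, adjusted p = 0.0411). The call of Sall1 held in 2 of 8 fits with an array left out, and that of Zeb2 in all 8. The median of this list was 0.11, against 0.40 for the 3 measured members that are transcription factors, of which 0 passed. With only 3 genes, the latter is the value of Foxc2 itself, whose main probe set is dim (mean 3.29). With an array left out these medians ran from 0.02 to 0.18 and from 0.22 to 0.58, both lowest without Dahl 6 weeks replicate 2. The list was highest without Dahl 4 weeks replicate 1 and the members without Dahl 6 weeks replicate 1. Both ends of the members' range were again the values of Foxc2.

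The proteins that tie podocalyxin and podoplanin to the cell cortex, and the enzymes that glycosylate them, gave 6 of 18 genes higher and 0 lower, with a median of 0.21. They were led by Rhoa, the small GTPase of actin contraction, at 0.59 (standard error 0.049, adjusted p = 0.00648) and Msn, which encodes moesin, at 0.62 (standard error 0.075, adjusted p = 0.011), both of which passed in all 8 fits with an array left out. Ezr, which encodes ezrin, was higher by 0.36 at 4 weeks (adjusted p = 0.03) and differed by -0.14 at 6 weeks (adjusted p = 0.162) and by 0.11 over both ages (adjusted p = 0.0945, limma). St3gal1, a sialyltransferase, rose by 1.17 between the ages in SHR rats (adjusted p = 0.0249). Without an array, 2 to 7 of this list were higher.

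Of 18 intermediate filament genes and partners of synaptopodin, 8 were higher and 1 lower, with a median of 0.32. Des, the intermediate filament of muscle and mesangial cells, was higher by 1.68 (standard error 0.17, adjusted p = 0.00832), Synpo2l, a relative of Synpo known from muscle, by 4.25 (standard error 0.45, adjusted p = 0.00904) and Lmnb1, a nuclear lamin, by 0.90 (standard error 0.11, adjusted p = 0.0118). Synpo2l read 7.77 to 9.05 in Dahl rats and 3.65 to 5.25 in SHR rats. Vim, the partner of nestin in filaments, was among the 8. Baiap2, an adaptor that bends membranes, was lower, with a log2 difference of -0.55 (adjusted p = 0.0497), and lost this call in 7 of 8 fits with an array left out. Des, Synpo2l and Lmnb1 passed in all 8, and the count of the list ran from 3 to 11 higher. For Lmnb1 the ages were unlike: it passed as higher at 4 weeks, while at 6 weeks the Dahl mean lay below the SHR mean without passing. Its later strain difference less the earlier one was -2.91 on the log2 scale.

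Around Vegfa, 4 of 18 genes of the VEGF family, its receptors and oxygen sensing were higher and 0 lower, with a median of 0.19. They were Egln3, an oxygen-dependent prolyl hydroxylase, by 2.88 (standard error 0.28, adjusted p = 0.00815), Vegfd, a ligand of lymphatic growth, by 1.63 (standard error 0.18, adjusted p = 0.00986), Epas1, an oxygen-regulated transcription factor, by 0.76 (standard error 0.089, adjusted p = 0.0107) and Angpt2, an angiopoietin, by 0.92 (standard error 0.17, adjusted p = 0.0249). Egln3 read 5.79 to 7.86 in Dahl rats and 3.57 to 4.39 in SHR rats. Without an array, 3 or 4 of the list were higher, and Angpt2 passed in 3 of 8 such fits and the others in 8.

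Markers of other cells moved with the strains too. Each list's score, the median over its genes of the deviation from the mean of the 8 arrays, ran for 22 proximal tubule markers from -1.98 to 0.11 in Dahl rats and from 0.24 to 0.94 in SHR rats. The lowest score, -1.98, was that of Dahl 6 weeks replicate 2, and the other 3 Dahl rats lay between -0.15 and 0.11. For 13 distal nephron markers the score ran from -1.41 to 0.17 in Dahl rats and from 0.04 to 0.72 in SHR rats, with -0.70 in Dahl 4 weeks replicate 2. Both Dahl replicates in which all 8 members were higher were thus the lower ones of their pair on the tubule markers. For 15 mesangial and smooth muscle markers the score ran from 0.17 to 0.45 in Dahl rats and from -0.48 to -0.10 in SHR rats, and for 14 endothelial markers from -0.05 to 0.65 and from -0.43 to -0.12. For 21 other podocyte genes it ran from -0.02 to 0.44 and from -0.34 to -0.07. Of the tubule markers 3 of 22 proximal and 6 of 13 distal ones were lower in Dahl rats, beside 24.2% of all probe sets. Of them 0 were higher. These counts rested on single arrays: 21 of the 22 proximal markers were lower without Dahl 6 weeks replicate 1, 7 were lower and 1 higher without Dahl 6 weeks replicate 2, and 0 were lower when any of the 6 other arrays was left out, while the distal count ran from 1 to 8. Mesangial markers had 9 of 15 higher and 1 lower, and endothelial markers 8 of 14 higher and 0 lower, beside 13.2% of all genes higher. With an array left out, 5 to 9 mesangial markers were higher, and 0 endothelial ones without either Dahl 4 weeks rat or either SHR 6 weeks rat, 1 without SHR 4 weeks replicate 2, 3 without Dahl 6 weeks replicate 2 and 7 without the remaining 2 arrays. Parietal epithelium, which also makes Pdpn, and lymphatic endothelium, which is known for it, had scores within -0.12 to 0.12 and -0.04 to 0.06, with 2 of 12 and 1 of 6 genes higher and 2 lower in each. Across the fits with an array left out, these parietal genes differed by 0.4 to 0.53 (Cd24), 0.34 to 0.53 (Ncam1), -1.34 to -0.82 (Krt8) and -0.53 to -0.37 (Krt18). The lymphatic ones differed by 0.73 to 0.94 (Lyve1), -0.06 to -0.05 (Reln) and -0.08 to -0.06 (Mmrn1). Leukocyte markers scored from -0.03 to -0.02 in Dahl rats and from 0.01 to 0.27 in SHR rats, with 6 of 15 higher and 6 lower. The SHR rats of 6 weeks had the highest of these scores, 0.27 and 0.17. Higher in Dahl rats were Ptprc, Cd68, Csf1r, Itgb2, Lyz2 and Tyrobp, and lower were Cd3e, Cd3d, Cd8a, Cd79b, Mrc1 and Cd163. Across the fits with an array left out, Csf1r differed by 1.23 to 1.4, Ptprc by 1.09 to 1.32 and Mrc1 by -1.93 to -1.59. With an array left out, 0 to 3 parietal, 0 or 1 lymphatic and 2 to 6 leukocyte markers were higher and 0 to 2, 0 to 3 and 2 to 6 lower. The part of these cells in the differences of the members was not tested.

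**Figure D4:**
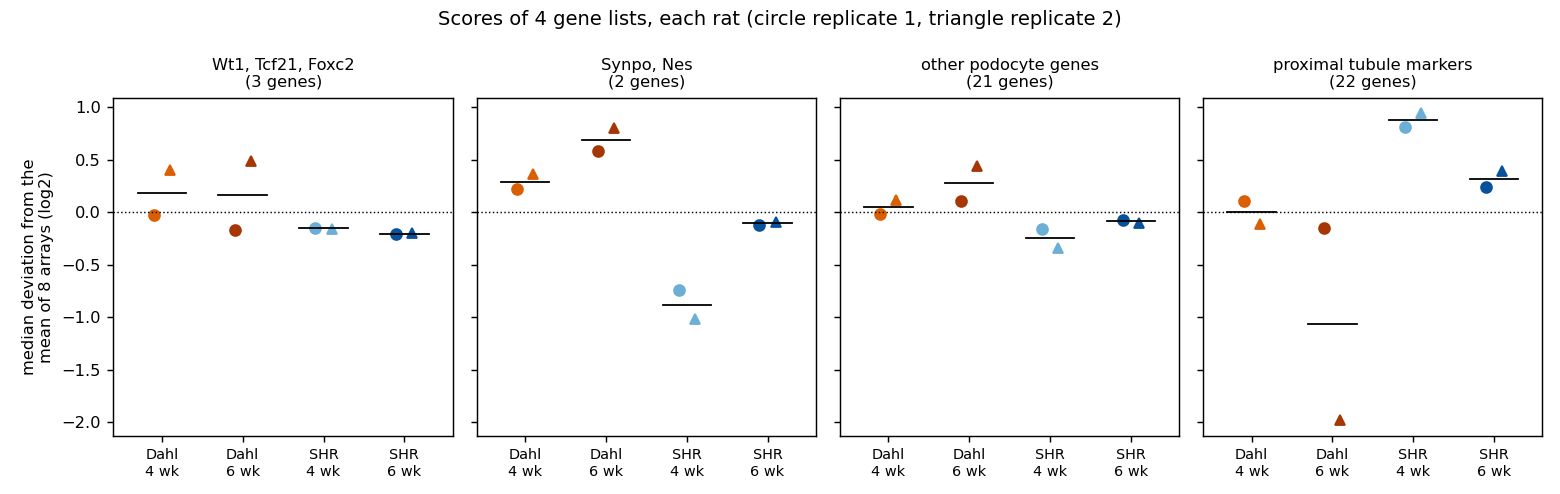
Score of 4 gene lists in each rat (vertical axis, median deviation from the mean of the 8 arrays on the log2 scale) by strain and age (horizontal axis), with circles for replicate 1, triangles for replicate 2 and bars for the mean of 2 rats. Synpo and Nes stand at 0.22 to 0.80 in Dahl rats and at -1.02 to -0.09 in SHR rats, and on the proximal tubule markers Dahl 6 weeks replicate 2 is lowest, at -1.98.

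Without Dahl 6 weeks replicate 2, the array with that score, 2 of 8 members were higher over both ages, Nes and Synpo, and Pdpn differed by 0.48 (adjusted p = 0.0626, limma).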

How the data were processed

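Glomerular RNA of 8 rats (Dahl and SHR, 4 and 6 weeks, 2 per group) was measured on Affymetrix rat genome arrays. The deposited log2 values had been background-corrected, normalized and summarized per probe set by the authors. The submitters' processing notes name RMA and GCRMA without versions, and the one that produced these values is not given in the sources. Of 31099 probe sets, 57 controls were left out. The array annotation gave 1 gene for 20826 probe sets, several for 436 (not named here) and none for 9780.

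With limma 3.58.1 (R 4.3.3), 1 mean per group was estimated (4 residual and 0.921 prior degrees of freedom), tested on simulated data, with Benjamini-Hochberg adjustment over 31042 probe sets. The number of arrays limits the precision. All members were named, and of the 12 other lists up to 3 genes with the smallest p for the strain difference, Nphs1, and genes of a direction taken by 5 or fewer. The members and lists were chosen with earlier results of these data known. Likeness was ranked over main probe sets annotated to 1 gene, as the 3 smallest root mean square differences. Promoters came from RefSeq. Alternatives were quantile normalization, centring on medians, a robust variance with intensity trend, the brighter probe sets, an additive model and each array left out. Others were a t-test, a block for replicate number, the mean of a gene's probe sets and the arrays of 1 age. The t-test set all Dahl rats against all SHR rats without age. The paper names an unpaired t-test for mRNA and protein levels and no test for the arrays. Leaving arrays out for the other lists was chosen after seeing the data.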

Additional observations from a re-analysis of the deposited data

Results flagged for a closer look

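None of the 8 podocyte members passed the interaction of strain and age, and 3 genes of the lists set beside them did. For Lmnb1, a nuclear lamin, the later strain difference less the earlier one was -2.91 (adjusted p = 0.0298, limma), with means of 7.59 and 6.67 in Dahl rats and 5.24 and 7.22 in SHR rats at 4 and 6 weeks. For Myl9, a myosin light chain among the mesangial and smooth muscle markers, it was -1.58 (adjusted p = 0.047), with means of 8.43 and 8.25 in Dahl rats and 7.10 and 8.50 in SHR rats. For Scnn1a, which encodes part of the renal epithelial sodium channel, among the distal nephron markers, it was 1.94 (adjusted p = 0.048), with means of 2.96 and 2.95 in Dahl rats and 5.20 and 3.26 in SHR rats. Both Dahl means of Scnn1a lie below the array medians of 4.11 to 4.16, too dim to show a fall with age, so this value does not compare the age responses of the strains. Each of these rests on 2 rats per group.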

How the results depend on the processing

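Nes over both ages passed under every alternative run, and of the strain differences over both ages of single members under the alternatives, 111 kept direction and side of the threshold, 11 lost the call and 5 changed sign. The count of 3 members higher over both ages became 1 (Nes) with the t-test between the strains, which leaves out age. It ran from 1 to 3 with an array left out. The 3 members at 4 weeks became 1 with only the arrays of that age and ran from 0 to 2 with an array left out, and the 1 at 6 weeks became 0 with only the arrays of that age and ran from 0 to 1. The 1 member that rose in SHR rats became 0 after quantile normalization and ran from 0 to 1 with an array left out. The other counts were 0 throughout. The sign changes were all of Vegfa, whose difference of -0.02 became 0.04 after quantile normalization, 0.42 with its probe sets averaged and 0.02 to 0.05 without Dahl 4 weeks replicate 1, Dahl 6 weeks replicate 1 or SHR 4 weeks replicate 1 (-0.09 to 0.05 over all arrays left out). Leaving out an array leaves 3 residual degrees of freedom in place of 4, and the number of all probe sets higher over both ages then ran from 1009 to 4063, against 3283. The cause of the other changes was not tested.

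Deviations of same-numbered arrays from their group means correlated between -0.225 and 0.236, so the replicate numbers were not taken to pair the rats. With the replicate number as a block, 3 members passed over both ages, 1 at 4 weeks, 0 at 6 weeks and 0 with age in SHR rats, and the probe sets that passed over both ages numbered 5598 against 10787. Precision is limited by 2 rats per group, and dim probe sets, such as those of Foxc2, carry little signal.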
